A study of Mus musculus with 6 samples.

Results

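The genes described here encode proteins that bind or crosslink actin filaments, lie at adhesion sites, or regulate smooth muscle contraction or its genes. They are Tpm1, Tpm2, Cald1, Csrp1, Flna, Nexn, Pgm5, Ppp1r14a, Kcnmb1 and Myocd. They were chosen by symbol as a set of 10 out of 18193 genes with a named probe set, and for each gene the probe set with the highest mean signal over all arrays stood for it. The tissue was fat from NOD mice, in which immune attack on the pancreatic islets leads to diabetes, and its RNA was measured on 6 Affymetrix arrays, 2 per group. The first group was AAT-treated mice, whose diabetes had stably reverted, with no need of insulin, after alpha-1-antitrypsin (AAT), a plasma protein that blocks serine proteases. The second was diabetic mice, whose blood glucose had stayed over 300 mg/dl for 3 days in a row. The third was normoglycemic female mice aged 10 weeks. The labels name no age or sex for the other groups, no fat depot, no dose of AAT, and no treatment given to all groups. The design text calls the samples duplicates without naming separate animals, so SE and p-values reflect the spread of these samples alone and may be technical.

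Smooth muscle surrounds the blood vessels that run through fat. Its force comes from myosin pulling on actin filaments. Tropomyosins and caldesmon lie along these filaments and govern how myosin reaches them, while LIM proteins, filamins and nexilin tie filaments to each other and to membrane anchors. Calcium-dependent phosphorylation of the myosin light chain starts contraction, and a myosin phosphatase ends it. Myocardin, the product of Myocd, is a coactivator that joins serum response factor on CArG boxes, short DNA elements near many smooth muscle genes.

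Of the 10 genes 8 had entries in RefSeq's promoter table (build GRCm38.p6), with 10 windows that each ran from 250 bases before an annotated start to 50 after it. Because serum response factor binds CArG boxes, the windows were searched for them, and for the MCAT element CATTCC, bound by TEAD factors, on both strands. No member window held a full CArG box (0 of 10, against 1.63% of all 32851 windows). A CArG box with 1 of its 10 letters changed was found in 3 of 10 windows, against 21.1% of all windows, and CATTCC in 3 of 10, against 14.7%. These 3 windows, of Tpm1, Cald1 and Flna, are printed because they hold both. Capitals mark the matches, which did not overlap. In Tpm1 (chr9:67049164-67049463, minus strand) the CArG-like stretches began 221 and 80 bases before the start and the MCAT element 56 bases before it. In Cald1 (the more upstream of its windows, chr6:34598254-34598553, plus strand) they began 203 and 153 bases before the start, and in Flna (chrX:74246485-74246784, minus strand) 44 and 146 bases before it.
Tpm1: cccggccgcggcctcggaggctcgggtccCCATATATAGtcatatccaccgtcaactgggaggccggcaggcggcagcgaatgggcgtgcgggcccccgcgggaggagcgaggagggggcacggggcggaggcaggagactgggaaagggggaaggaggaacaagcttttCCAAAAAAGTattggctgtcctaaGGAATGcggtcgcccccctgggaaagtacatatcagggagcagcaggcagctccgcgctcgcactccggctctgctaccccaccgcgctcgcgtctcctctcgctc
Cald1: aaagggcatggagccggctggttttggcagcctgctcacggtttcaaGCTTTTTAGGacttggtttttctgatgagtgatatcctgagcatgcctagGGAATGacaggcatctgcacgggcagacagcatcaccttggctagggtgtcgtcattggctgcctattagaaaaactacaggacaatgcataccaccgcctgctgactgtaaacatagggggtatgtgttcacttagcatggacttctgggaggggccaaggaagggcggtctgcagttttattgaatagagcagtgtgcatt
Flna: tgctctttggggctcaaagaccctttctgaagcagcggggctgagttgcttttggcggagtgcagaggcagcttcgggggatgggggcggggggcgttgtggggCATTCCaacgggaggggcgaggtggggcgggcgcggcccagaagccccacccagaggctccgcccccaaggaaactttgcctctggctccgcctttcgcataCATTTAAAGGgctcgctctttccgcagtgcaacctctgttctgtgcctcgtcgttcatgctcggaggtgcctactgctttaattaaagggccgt
A match of letters is a description of the window and not a binding site.

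RNA quality differed between the groups. The 3' to 5' signal ratio of the beta-actin control, which rises as RNA breaks down, was 9.08 and 5.87 in AAT-treated, 15.2 and 15.5 in diabetic, and 3.63 and 4.30 in normoglycemic fat. The groups did not overlap in this ratio, so group and RNA quality cannot be told apart. In the same ratio of the Gapdh control, AAT-treated (2.31 and 0.79) and normoglycemic fat (0.91 and 0.95) overlapped. Diabetic fat was highest in it (2.46 and 4.63). Hybridisation controls, added in fixed amounts, had their highest mean signals on normoglycemic 1 (128547) and AAT-treated 2 (86286), and the remaining arrays had 25158 to 48494. Normoglycemic 1 stood furthest out on the first principal component (69.2, with the others between −39.6 and 32.2), which held 46.2% of the variance. The fat markers Adipoq, Fabp4 and Lpl had signals of 15689.8 or more on all 6 arrays. No arrays held identical values.

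In AAT-treated against diabetic fat all 10 genes had higher mean values, while 51.2% of the 13043 genes tested did. The median log2 difference of the members was 1.62, against 0.01 over all genes tested. Both AAT-treated arrays lay above both diabetic arrays for 9 members, against 17.9% of genes tested, and Myocd was the exception. The reverse, both AAT-treated arrays below, held for 0 members and 15.9% of genes. A log2 difference of 1 or more was found for 8 members, against 2.88% of genes, with Kcnmb1 and Myocd below it. The set was proposed with higher smooth muscle signals in AAT-treated fat already known, so these values describe the members and test nothing. By limma's moderated test over all genes, 0 of 10 members and 0 of 13043 genes passed an adjusted p of 0.05 (0% called), and the members' adjusted p was 0.677 or more. At an unadjusted p under 0.05, 7 members were higher, against 2.94% of genes tested, and 0 lower, against 1.83%. With the beta-actin ratio, highest on the diabetic arrays, as a covariate, the median was 2.45 and Kcnmb1 stood at −0.15. The groups did not overlap in that ratio, so its slope came only from the gaps within pairs of arrays. Values fitted with it, here and below, cannot separate group from RNA quality. All log2 differences below are of log2(signal + 74), which understates changes of dim genes, and are given ± SE with n = 2 arrays per group. In bulk tissue, fewer cells of a type and less RNA per cell cannot be told apart.

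The tropomyosins coil along actin. Tpm2 (probe set 1419738_a_at), the beta isoform gene, had signals of 20794 and 30033 in AAT-treated, 6917 and 2339 in diabetic, and 2569 and 9258 in normoglycemic fat. Both AAT-treated arrays were above the other 4. Its log2 difference was 2.61 ± 0.67 in AAT-treated against diabetic fat, the largest among the members. Tpm1 (1423721_at), the alpha isoform gene, had 3939.6 and 4832 in AAT-treated, 1230.4 and 1328 in diabetic, and 822 and 2511 in normoglycemic fat. The AAT-treated arrays again lay above all others, and the diabetic pair lay between the normoglycemic arrays. The difference of Tpm1 was 1.71 ± 0.48 against diabetic fat.

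Other probe sets of the tropomyosins did not all follow. A second Tpm2 probe set, with 9696 and 13406 in AAT-treated and 2644 and 1186 in diabetic fat, differed by 2.63. The remaining Tpm2 probe sets were dimmer and differed by 0.46 and 0.98. For Tpm1 a second probe set differed by 2.26, and another by −0.23, with 484 and 206 in AAT-treated and 459 and 327 in diabetic fat. Affymetrix probe sets read different stretches of a transcript, and no probe annotation used here ties them to isoforms. Over all members, 9 other probe sets passed the signal filter, and 8 of these were higher in AAT-treated than in diabetic fat.

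Caldesmon, from Cald1, binds actin and tropomyosin and holds back myosin's activity. Cald1 (1424769_s_at) had signals of 20200.1 and 25691 in AAT-treated, 10751 and 8324 in diabetic, and 4528 and 13127 in normoglycemic fat. Both AAT-treated arrays were the highest, and the difference against diabetic fat was 1.26 ± 0.51. The other Cald1 probe sets above the filter differed by 0.46, 0.62 and 0.03, all less than the brightest.

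Among the crosslinkers, Csrp1 (1425811_a_at) encodes a LIM protein that binds actin-bundling proteins. It had 5769 and 6424 in AAT-treated, 1464 and 1266 in diabetic, and 788 and 3113 in normoglycemic fat. The AAT-treated pair agreed closely and stood above every other array, with a difference of 2.10 ± 0.55 against diabetic fat. The second Csrp1 probe set differed by 2.27. Flna (1426677_at) encodes filamin A, which joins actin filaments into networks and to membrane receptors. Its signals were 9692 and 8139.8 in AAT-treated, 3037 and 3032 in diabetic, and 772 and 3529 in normoglycemic fat. The diabetic arrays were nearly equal, and the difference was 1.53 ± 0.59.

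Nexn (1435649_at) encodes nexilin, an actin-binding protein of cell adhesions and muscle. It had 809 and 875 in AAT-treated, 372 and 297 in diabetic, and 45.4 and 434 in normoglycemic fat, with a difference of 1.17 ± 0.62 against diabetic fat. Pgm5 (1437871_at) encodes aciculin, a relative of phosphoglucomutase found at adhesion sites. It had 1106 and 1244 in AAT-treated, 414 and 203 in diabetic, and 41.8 and 485 in normoglycemic fat. For both genes the AAT-treated arrays were highest and normoglycemic 1 lowest. The difference of Pgm5 was 1.76 ± 0.68.

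Ppp1r14a and Kcnmb1 set how strongly the muscle contracts. Ppp1r14a (1418086_at) encodes CPI-17, which inhibits myosin phosphatase once it is phosphorylated. Its signals were 1018 and 1818 in AAT-treated, 177 and 186 in diabetic, and 27.9 and 463 in normoglycemic fat. The AAT-treated arrays were above all others and the difference was 2.49 ± 0.70, a 5.63-fold ratio. Kcnmb1 (1421400_at) encodes the beta-1 subunit that raises the calcium sensitivity of the large-conductance potassium channel, which relaxes smooth muscle. It was dim, at 289.5 and 408 in AAT-treated, 226 and 113 in diabetic, and 232 and 131 in normoglycemic fat. Its AAT-treated arrays were also the highest, but the difference was smaller (0.82 ± 0.49). Kcnma1, which encodes the pore of the same channel and was singled out after its values were seen, did not share this order. It had 153 and 273 in AAT-treated, 239.5 and 112 in diabetic, and 613 and 313 in normoglycemic fat. The other Kcnmb1 probe set was below the filter, with 196.6 and 299.5 in AAT-treated, 144.4 and 81.5 in diabetic, and 12.5 and 220.5 in normoglycemic fat. On it AAT-treated 1 lay below normoglycemic 2.

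Myocd (1425978_at) was the dimmest member. Its signals were 212 and 390.2 in AAT-treated, 272 and 131 in diabetic, and 37.6 and 192 in normoglycemic fat. AAT-treated 1 lay below diabetic 1, so the groups overlapped, and the difference of 0.45 ± 0.61 was smaller than its SE. Its other probe set was below the filter, with signals of 11.4 to 57.4.

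**Figure D1:**
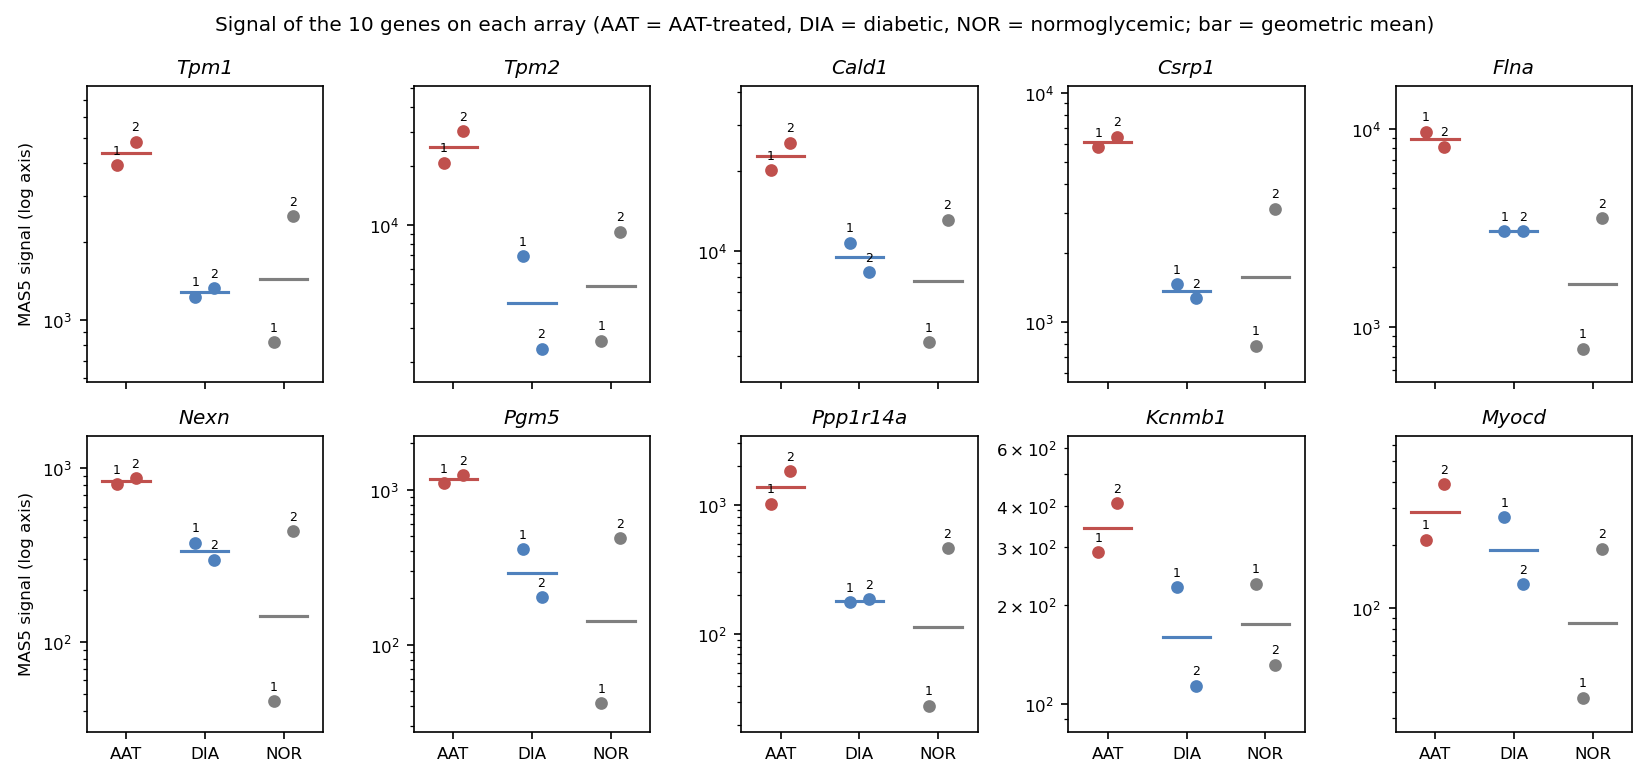
MAS5 signal (log axis) of each of the 10 genes on every array, with array numbers beside the points and a bar at the geometric mean of a group. Both AAT-treated arrays lie above the other 4 for all genes but Myocd, and the normoglycemic arrays are far apart for all but Kcnmb1.

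For 9 of the 10 genes both AAT-treated arrays lay above the other 4, a pattern shown by 758 of 13043 genes (5.81%). The opposite pattern, both AAT-treated arrays lowest, was shown by 0 members and 5.10% of genes. On the probe sets that stood for the genes, mean levels were thus highest in AAT-treated fat. The diabetic and normoglycemic groups below it did not differ beyond their spread on these probe sets.

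Diabetic against normoglycemic fat gave no common direction. Of the 10 members 6 were higher and 4 lower, with 46.4% of all genes higher, and the median log2 difference was 0.21, against −0.06 over all genes. The groups did not overlap for 0 members, against 20.2% of genes higher and 24.5% lower. The differences ran from −0.27 ± 0.67 for Tpm2 to 0.83 ± 0.59 for Flna. By limma 0 of 10 members and 0 of 13043 genes passed (0% called, with members' adjusted p at 0.639 or more), and at an unadjusted p under 0.05 there were 0 members, against 5.27% of genes higher and 4.62% lower. A log2 difference of 1 or more was found for 0 members, against 6.32% of genes. Tpm1 differed by −0.17 ± 0.48, Csrp1 by −0.21 ± 0.55 and Ppp1r14a by 0.13 ± 0.70. Kcnmb1 was at −0.08 ± 0.49, and at 0.04 and 0.03 when arrays were quantile-normalized or centred on their medians. Other probe sets of the members did not all follow. A second Tpm1 probe set (1423049_a_at) had 277 and 160 in diabetic and 393 and 993 in normoglycemic fat, a difference of −1.30. A Cald1 probe set (1433147_at) had 571 and 560 in diabetic and 322 and 368 in normoglycemic fat, a difference of 0.61. Of the 9 other probe sets above the filter, 6 were higher in diabetic fat.

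The normoglycemic arrays themselves were far apart. Normoglycemic 2 was above normoglycemic 1 for 9 of 10 genes, by a median log2 difference of 1.85 over the members, against −0.07 over all genes. The gap was 1 or more for 9 members, against 9.48% of genes in that direction. It was 2.40 for Ppp1r14a, 2.27 for Pgm5, 2.09 for Flna and Nexn, and −0.58 for Kcnmb1. The AAT-treated pair differed by a median of 0.32 and the diabetic pair by −0.32 (array 2 minus array 1), and the widest gap in these groups was −1.53, for Tpm2 in diabetic fat.

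Diabetic fat therefore stood on different sides of the normoglycemic arrays. Against normoglycemic 1 alone, 9 of 10 members were higher in diabetic fat, with a median of 1.15. Against normoglycemic 2 alone, 1 of 10 was higher, Kcnmb1, with a median of −0.54. Tpm2 then differed by −1.18, Csrp1 by −1.15 and Ppp1r14a by −1.07, while Flna differed by −0.21. For 7 members normoglycemic 1 lay below and normoglycemic 2 above both diabetic arrays, a pattern of 7.03% of genes. Normoglycemic 1 had the brightest hybridisation controls of the 6 arrays. With their level as a covariate the members' median was −0.15, and with the beta-actin ratio it was −0.79.

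AAT-treated against normoglycemic fat had the same direction for all members. All 10 were higher, against 48% of genes, with a median log2 difference of 1.89 against −0.03 over all genes. The groups did not overlap for 10 members, against 16% of genes tested. The differences ran from 0.74 ± 0.49 for Kcnmb1 to 2.62 ± 0.70 for Ppp1r14a, with Flna at 2.36 ± 0.59, Tpm2 at 2.34 ± 0.67 and Pgm5 at 2.29 ± 0.68. Myocd was at 1.08 ± 0.61. By limma 0 of 10 members and 0 of 13043 genes passed (0% called, members' adjusted p at 0.819 or more), and 8 members were higher at an unadjusted p under 0.05, against 3.41% of genes, with 0 lower, against 1.72%. The log2 difference was 1 or more for 9 members, against 4.27% of genes. The reverse order without overlap held for 0 members and 16.1% of genes. This comparison shares its AAT-treated arrays with the one against diabetic fat. Fibroblast and mesothelial markers were also higher in it, for 7 of 7 genes each, and their part in the result was not tested. Against normoglycemic 2 alone, the members' median was 0.99, with all 10 higher, from 0.45 for Myocd to 1.43 for Tpm2. Against normoglycemic 1 alone it was 2.89. With the beta-actin ratio as a covariate it was 1.32.

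**Figure D2:**
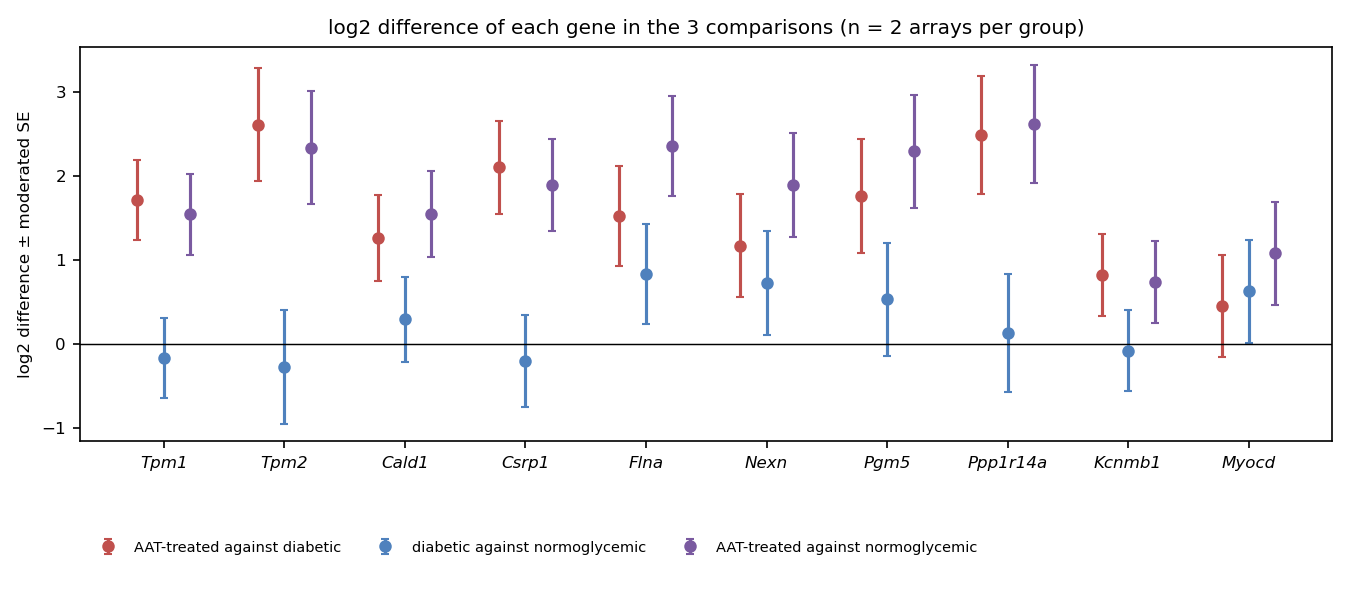
Log2 difference ± moderated SE of each gene in the 3 comparisons, with n = 2 arrays per group. All 10 genes lie above 0 in both comparisons of AAT-treated fat, and the diabetic against normoglycemic values lie between −0.27 and 0.83.

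**Figure D3:**
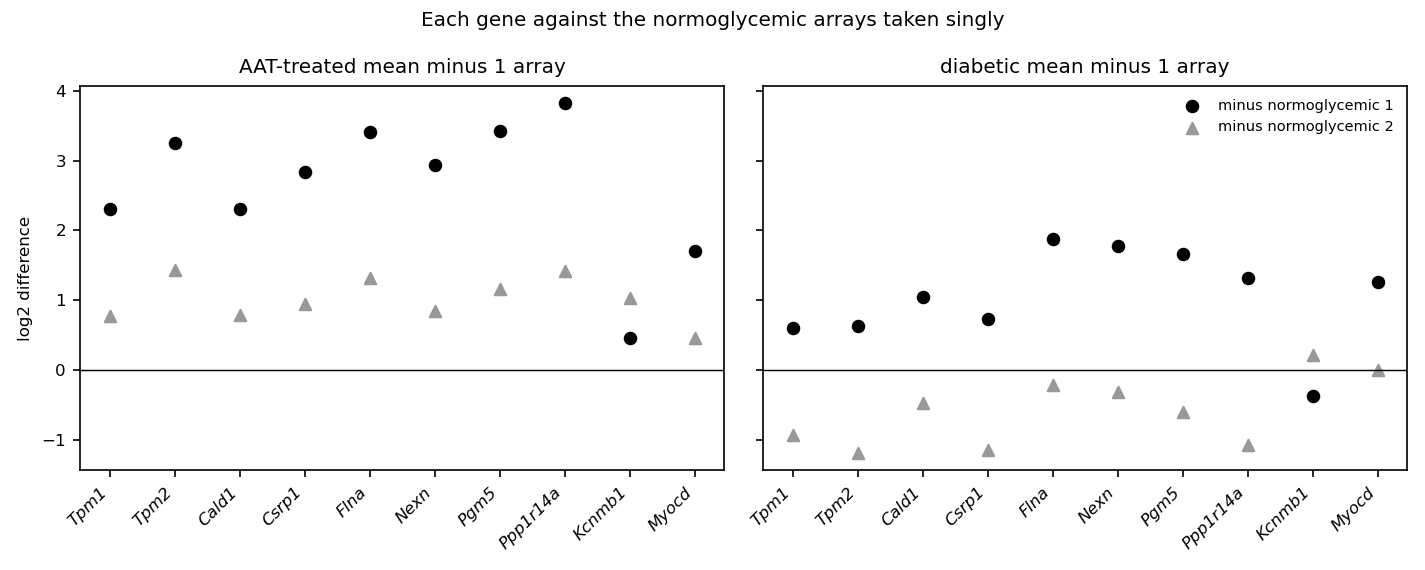
Log2 difference of the AAT-treated mean (left) and the diabetic mean (right) from normoglycemic 1 (circles) and from normoglycemic 2 (triangles), taken singly, for each gene. The AAT-treated values are above 0 against both arrays, while the diabetic values are above 0 against normoglycemic 1 for 9 genes and against normoglycemic 2 for 1.

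The members varied together over the 6 arrays. Pearson's r between pairs of members had a median of 0.92 over 45 pairs and ran from 0.38 to 0.99. All pairs share the same 6 arrays and their scaling, so r is given as a description. Each gene was set against the mean of the other 9. Cald1 (0.997) and Pgm5 (0.988) were closest, Myocd had 0.85 and Kcnmb1 0.53. On the probe set that stood for it, Kcnmb1 was the member whose normoglycemic arrays were in the reverse order. Its other probe set, below the filter, had them in the order of the other members (12.5 and 220.5).

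Outside the set, 13033 genes were ranked by r with the mean of the members over the same 6 arrays, and 156 had r above 0.9. The top 6 were Csnk1g2 (0.999), Polb (0.997), Cdc42ep3, Acta2 and Lpp (0.989, 0.989 and 0.988) and Itga8 (0.987). Csnk1g2, a casein kinase, and Polb, a DNA repair polymerase, shared the order of arrays but with small differences of 0.52 ± 0.32 and 0.53 ± 0.33 in AAT-treated against diabetic fat. Itga8, an integrin subunit, had 1591 and 1848 in AAT-treated, 584 and 367 in diabetic, and 265 and 707 in normoglycemic fat, a difference of 1.73 ± 0.44. The adhesion protein gene Lpp differed by 1.13 ± 0.50 and Cdc42ep3, an effector of Cdc42, by 1.25 ± 0.40.

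Genes of the contractile apparatus itself were compared in the same fit. Of 14 measured, 13 were higher in AAT-treated than diabetic fat, 13 without overlap (against 17.9% of genes tested). The list's median of 2.35 was above that of the 10 members. The smooth muscle actin gene Acta2 had 25799 and 36469 in AAT-treated, 8066 and 5911 in diabetic, and 3823 and 14637 in normoglycemic fat. Myh11, the smooth muscle myosin heavy chain, differed by 3.44 ± 0.80, Tagln by 2.92 ± 0.72, and Mylk, the light-chain kinase, by 2.14 ± 0.51. All 14 were higher in AAT-treated than in normoglycemic fat (median 2.11). Diabetic against normoglycemic, 4 were higher and 10 lower, with a median of −0.38.

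Serum response factor and its partners had smaller differences. All 9 measured were higher in AAT-treated than in diabetic fat, 2 without overlap (against 17.9% of genes tested), with a median of 0.49. Srf had 843 and 1146 in AAT-treated, 447 and 635 in diabetic, and 494 and 742 in normoglycemic fat, and both AAT-treated arrays were above the other 4 (0.80 ± 0.36). The myocardin-related coactivators Mrtfa and Mrtfb differed by 0.03 ± 0.43 and 0.24 ± 0.37, Fhl1 by 0.32 ± 0.43 and Klf4 by 0.49 ± 0.75. Diabetic against normoglycemic, 3 were higher and 6 lower, and AAT-treated against normoglycemic, 7 were higher and 2 lower.

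Other tropomyosins and crosslinkers, many of them used by non-muscle cells, were mostly higher in AAT-treated than in diabetic fat (15 of 17, median 0.49). Of these, 8 were without overlap, against 17.9% of genes tested. The tropomyosin gene Tpm3 differed by −0.27 ± 0.41, the LIM protein gene Lasp1 by −0.65 ± 0.51 and the calponin Cnn3 by 0.49 ± 0.66. The largest differences, singled out after their values were seen, were those of Pdlim3 (2.45 ± 0.56) and Palld, palladin (1.88 ± 0.44). Against normoglycemic fat, 15 of 17 were higher in AAT-treated fat (median 0.55) and 11 of 17 in diabetic fat (median 0.20).

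Genes for calcium sensitisation and myosin phosphatase had a median of 0.40 between AAT-treated and diabetic fat, 9 of 12 being higher. The small GTPase Rhoa differed by 0.36 ± 0.33, its kinase Rock1 by 0.18 ± 0.36, and Ppp1cb, the catalytic subunit of myosin phosphatase, by 0.55 ± 0.33. Ppp1r12b, a regulatory subunit of that phosphatase singled out after its values were seen, had 1890.2 and 4201 in AAT-treated, 880.5 and 810.4 in diabetic, and 786 and 1204 in normoglycemic fat. It differed by 1.66 ± 0.42 in AAT-treated against diabetic fat. Against normoglycemic fat, 8 of 12 were higher in AAT-treated and 5 of 12 in diabetic fat. The channel and calcium store genes had a median of 0.21 between AAT-treated and diabetic fat, 7 of 9 being higher. Atp2a2, the calcium pump of the store, differed by 0.08 ± 0.35, its inhibitor phospholamban (Pln) by 0.86 ± 0.61, and Abcc9 by −0.20 ± 0.47. Against normoglycemic fat, 6 of 9 were higher in AAT-treated and 3 of 9 in diabetic fat. In all these lists 0 genes passed limma's adjusted threshold in any comparison.

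**Figure D4:**
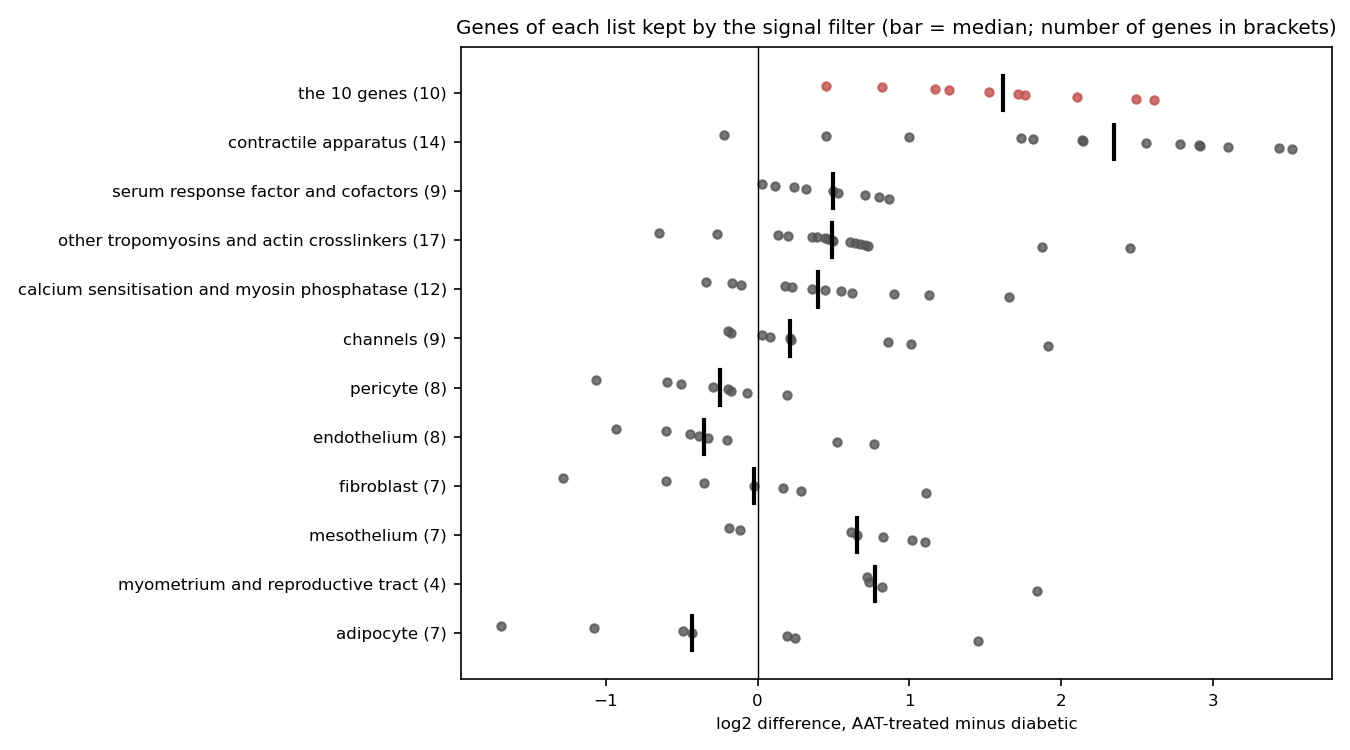
Log2 difference, AAT-treated minus diabetic, of each gene kept by the signal filter, for the 10 genes and for 11 lists, with a bar at each median. The 10 genes (median 1.62) and the contractile apparatus (2.35) lie furthest to the right, and the pericyte (−0.25) and endothelium (−0.36) medians lie below 0.

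Most markers of pericytes and endothelium, the other cells of vessel walls, were not higher in AAT-treated than in diabetic fat. Only 1 of 8 pericyte markers, Rgs4, had a higher mean in AAT-treated than in diabetic fat, and the list's median was −0.25. Rgs5 had 12676 and 4044 in AAT-treated, 7613 and 7459 in diabetic, and 1627 and 7997 in normoglycemic fat. Pdgfrb differed by −1.07 ± 0.70 and Notch3 by −0.51 ± 0.35. Endothelial markers had a median of −0.36, with 2 of 8 higher, and their summed signal was 21307 and 4446 in AAT-treated, 15257 and 9474 in diabetic, and 2721 and 23374 in normoglycemic fat. Against normoglycemic fat, 6 of 8 pericyte markers (median 0.27) and 4 of 8 endothelial markers (median 0.08) were higher in AAT-treated fat. Normoglycemic 1 was the lowest of the 6 arrays for the endothelial sum, the pericyte sum (5724, against 9161 or more elsewhere) and the members' sum (9864, against 17218 or more).

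Some markers of other tissues were higher along with the members. All 4 myometrium and reproductive tract markers above the filter had higher means in AAT-treated than in diabetic fat. For 2 of them the groups did not overlap, against 17.9% of genes tested, and the list's median was 0.78. Their summed signal over 5 genes was 7188 and 10135 in AAT-treated, 4998 and 3607 in diabetic, and 5028 and 5008 in normoglycemic fat. The progesterone receptor gene Pgr had 2179 and 1822 in AAT-treated, 666 and 376 in diabetic, and 464 and 985 in normoglycemic fat. Esr1, the estrogen receptor, and Hoxa11 differed by 0.73 ± 0.43 and 0.82 ± 0.35. Hand2, below the filter and singled out after its values were seen, had 237 and 351 in AAT-treated, 46.2 and 32.8 in diabetic, and 143 and 66.7 in normoglycemic fat. Fat cells and stroma can express Esr1 and Pgr too. Mesothelial markers were higher for 5 of 7, with a median of 0.65 and sums of 7399 and 12041 in AAT-treated, 5661 and 5247 in diabetic, and 5139 and 3471 in normoglycemic fat. For 3 of the 7 the groups did not overlap, against 17.9% of genes tested. Upk3b differed by 0.61 ± 0.32, Wt1 by 1.11 ± 0.39 and Upk1b by 0.83 ± 0.61. Upk1b had 734 and 3451 in AAT-treated and 867 and 889 in diabetic fat, so its groups overlapped. The part of these tissues in the result was not tested.

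The remaining lists did not share 1 direction between AAT-treated and diabetic fat. Skeletal muscle markers passed the filter for 3 of 9 genes, and their sum was 5344 and 812 in AAT-treated, 1129 and 1579 in diabetic, and 2155 and 2618 in normoglycemic fat, with the high value set by Myh1 on AAT-treated 1 (2659). Cardiac markers passed for 2 of 6, with Actc1, whose AAT-treated arrays (492 and 683) lay above the other 4, at 1.01 ± 0.37 and Nppa at −0.05 ± 0.61. Tnnt2, below the filter, had 75.4 and 517.5 in AAT-treated, 3.8 and 1.9 in diabetic, and 20.9 and 6.3 in normoglycemic fat. It differed by 1.95 ± 0.58 in AAT-treated against diabetic fat. The rest of the cardiac list, below the filter too, ran from −0.61 to 0.01. Fibroblast genes had a median of −0.02, with 3 of 7 higher. In AAT-treated against normoglycemic fat, however, 7 of 7 fibroblast genes were higher, 5 without overlap (against 16% of genes tested), with a median of 0.59. So were 7 of 7 mesothelial genes, with a median of 0.84. Adipocyte genes had a median of −0.43 over 7 genes against diabetic fat, and 6 of 7 were lower than in normoglycemic fat (median −0.71). The mammary and ductal keratins Krt5, Krt8 and Krt18 were highest on AAT-treated 2 (Krt18 at 5150). Krt14, below the filter, was highest on normoglycemic 1 (297, against 158 on AAT-treated 2). The list sums were 1471 and 9790 in AAT-treated, 2888 and 1627 in diabetic, and 3416 and 1609 in normoglycemic fat. Intestinal markers passed for 3 of 5, with a median of −0.77, and pancreas markers for 2 of 5, with a median of −0.21. Of the red cell markers Alas2 and Slc4a1 passed, at 1.65 ± 0.79 and 1.54 ± 0.41 (median 1.60). Both were without overlap, against 17.9% of genes tested. The members' differences between AAT-treated and diabetic fat without AAT-treated 2 had a median of 1.61, with 10 of 10 higher. AAT-treated 1, which remained, had sums of 7188 for the myometrium and reproductive tract markers and 5344 for the skeletal muscle markers. The part of the cells and tissues of these lists in the members' differences was not tested.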

How the data were processed

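Per the labels' protocols, total RNA was isolated from fat in Trizol and given a biotin label with the single-cycle Affymetrix procedure. The authors deposited linear intensities, 1 signal for each of 45101 probe sets on each of 6 arrays, which the submitters' processing notes credit to MAS5 (no version is given in the sources used here). Each array averaged 500 once 2% of probe sets were trimmed at either end, and no further scaling was applied. Medians lay between 175.7 and 272. With 2 arrays a group, their number limits how precise a difference can be. MAS5 subtracts mismatch signal, which leaves dim probe sets noisy.

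Gene symbols came from the platform annotation, and identifiers were matched to RefSeq for 34741 of 34945 probe sets with 1 symbol, and 0 symbols needed updating. The 64 controls, 932 probe sets naming several genes and 9160 naming none were not used. The fit used log2(signal + 74), the constant being the 25th percentile of the deposited intensities. Genes whose brightest probe set had a mean signal above 164.4 (the 40th percentile) were tested, 13043 in number. All 10 members passed, and a member can pass through the group where it is high. Differences were fitted with limma 3.58.1 in R 4.3.3 (3 group means over 6 arrays, eBayes with trend, 3 residual degrees of freedom, 2-sided), with Benjamini-Hochberg adjustment over all genes at 0.05. An exact permutation test of 2 arrays against 2 cannot go below 0.333 and was not run. Members and lists were chosen with earlier results of these data known.

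The lists cover the contractile apparatus, serum response factor, other crosslinkers, calcium sensitisation, channels and markers of 12 other cell types or tissues. By rule, genes named from a list are among its 3 members with the highest mean signal, plus Srf, Mrtfa, Acta2, Myh11 and Tagln. Kcnma1, Pdlim3, Palld, Ppp1r12b, Hand2, Rgs4 and Krt14 fall outside this rule and were named after their values were seen. Genes named for likeness are the top 6 by r. Lists share genes (Kcnj8, Abcc9, Epcam). The fit was tested on simulated data. Alternatives changed the added constant, filter, scaling, probe set, fit and arrays used. Replicate numbers were not used as pairs. Figures were drawn with matplotlib 3.10.9.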

Additional observations from a re-analysis of the deposited data

How the results depend on the processing

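The members' median difference in AAT-treated against diabetic fat stayed between 1.35 and 1.79 under every alternative run but 1, with no member's direction turned. The exception was the beta-actin ratio as a covariate (median 2.45, with Kcnmb1 at −0.15). In each comparison, values with this covariate cannot separate group from RNA quality. Leaving out each array in turn gave 1.44 to 1.64. AAT-treated against normoglycemic, every member kept by the filter was higher under every alternative run (8 at the 60th percentile filter, otherwise 10), with medians of 1.32 with the beta-actin ratio, 0.99 to 2.89 leaving out each array (lowest without normoglycemic 1, highest without normoglycemic 2), and 0.85 without normoglycemic 1 and AAT-treated 2, a choice made after seeing the data. Diabetic against normoglycemic depended on single arrays. The median was −0.54 without normoglycemic 1, also with AAT-treated 2 left out, 1.15 without normoglycemic 2, −0.79 with the beta-actin ratio and −0.15 with hybridisation controls as a covariate. Members without overlap between these groups numbered 0 to 9 on leaving out each array and 8 without normoglycemic 1 and AAT-treated 2 (8 lower). Such counts are high for all genes once a group has 1 array. Without normoglycemic 1, 36% of genes were lower without overlap, against 8 of 10 members, and without normoglycemic 2, 36.1% were higher, against 8 of 10 members. Of 168 member values under alternatives in this comparison, 33 changed sign.

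Genes past the adjusted threshold numbered 0 in each comparison, except 1 with no filter (AAT-treated against diabetic) and 0 to 3 on leaving out each array, with 3 without normoglycemic 2 (AAT-treated against normoglycemic). None of these was a member. Replicate numbers were not taken to pair the samples (deviations of same-numbered arrays from their group means correlated at −0.12, −0.51 and 0.08). The −0.51 was between AAT-treated and normoglycemic fat, so AAT-treated 2 tended to deviate as normoglycemic 1 did. These arrays had the brightest hybridisation controls (86286 and 128547). With the replicate block the medians were 1.62, 0.21 and 1.89 and 0 genes passed. Depth in the sense of signal limits Kcnmb1 and Myocd, which fell out at the 60th percentile filter.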
